A study of Sus scrofa with 60 samples.

Results

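Livers of 60 neonatal pigs were examined for 9 antioxidant genes controlled by the transcription factor NRF2 or working in glutathione metabolism: SLC7A11, GCLC, GCLM, GSR, GPX2, TXNRD1, SRXN1, NQO1 and HMOX1. They were picked by gene symbol from the 30335 named genes of the count table, and each symbol had 1 row. Pigs had either bile duct ligation (BDL), in which the cystic and common bile ducts were tied to block bile flow, or sham surgery. They were fed enterally with milk replacer (ENT), or by parenteral nutrition with a soy lipid emulsion (SLE, labelled IL) or a mixed lipid emulsion (MLE, labelled SL). All were crossbred piglets delivered by cesarean section shortly before term, all received parenteral nutrition at first, both sexes were used, and liver was taken on day 14. Sham surgery was done in 12 ENT, 10 SLE and 9 MLE pigs and ligation in 10 ENT, 11 SLE and 8 MLE pigs, each with 1 library of poly-A RNA. One pig identifier stands in the labels of both SLE-sham replicate 9 and replicate 10, so that the 10 SLE-sham pigs may be 9. The counts of ENT-sham replicate 2 and ENT-BDL replicate 1 nearly matched, as described below, although their labels name different pigs. Whether either pair comes from 1 animal was not tested, and all 60 libraries were counted as separate pigs. Whole liver was sequenced, so fewer cells of a type and less RNA per cell cannot be told apart.

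NRF2, encoded by NFE2L2, is held in the cytoplasm by KEAP1, which marks it for breakdown. Oxidants and electrophiles modify KEAP1, and NRF2 then enters the nucleus, pairs with small MAF proteins and switches on antioxidant genes. Among these, SLC7A11 imports cystine, from which the cell obtains the cysteine for glutathione, while GCLC and GCLM are the catalytic and modifier subunits of the enzyme for the first committed step of glutathione synthesis. GSR reduces oxidized glutathione, and GPX2 uses glutathione to remove peroxides. TXNRD1 reduces thioredoxin, and SRXN1 restores overoxidized peroxiredoxins. NQO1 reduces quinones, and HMOX1 breaks down haem. The liver makes much glutathione, and some of it leaves with the bile. Several of these genes also answer to other regulators, such as ATF4 for SLC7A11 and BACH1 for HMOX1.

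The libraries held 14469788 to 21374161 counts over named genes (median 17254606). ENT-sham replicate 2 and ENT-BDL replicate 1 were far closer to each other than any other of the 1770 pairs: a chi-square per degree of freedom over 12225 genes was 2.03 between them, 19.2 for the next closest pair and 63.5 in the median pair within a group. The labelled sham pig stood with the ligated one. Its 10 cholangiocyte markers, genes of the bile duct lining that multiplies after ligation, summed to 648.7 CPM (counts scaled to library size by edgeR's TMM factors), against 94.6 to 223 CPM in the other 11 ENT-sham pigs. SRXN1, low in all other ENT-sham pigs, was 37.4 CPM there and 36.4 CPM in ENT-BDL replicate 1. Whether these 2 libraries come from 1 liver was not tested, and they were counted as separate pigs. The library labelled ENT-sham replicate 2 was kept in its labelled group, and results that rest on these libraries are also given without both. SLE-sham replicates 9 and 10, which share an identifier, had a chi-square per degree of freedom of 41.1 and were counted as separate pigs. No call made with SLE-sham for SRXN1, SLC7A11 or HMOX1 was lost when either was left out, and GCLC, at an adjusted p of 0.0742 in SLE-sham against ENT-sham, was called without replicate 9.

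Levels were first compared between genes per kilobase of transcript. HMOX1 averaged 62.0 CPM per kb over all pigs, GCLC 41.2 and GSR 20.4. TXNRD1 followed at 15.9, GCLM at 11.99, SRXN1 at 8.38 and NQO1 at 8.28 CPM per kb. SLC7A11 was at 1.51 and GPX2 at 0.256 CPM per kb. The catalytic glutamate-cysteine ligase subunit and haem oxygenase were thus the most abundant of these transcripts, and the cystine importer was scarce. Without the correction for length, TXNRD1 differed least between pigs, 2.54-fold from lowest to highest CPM, and SLC7A11 most among the genes tested, 19.4-fold.

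**Figure D1:**
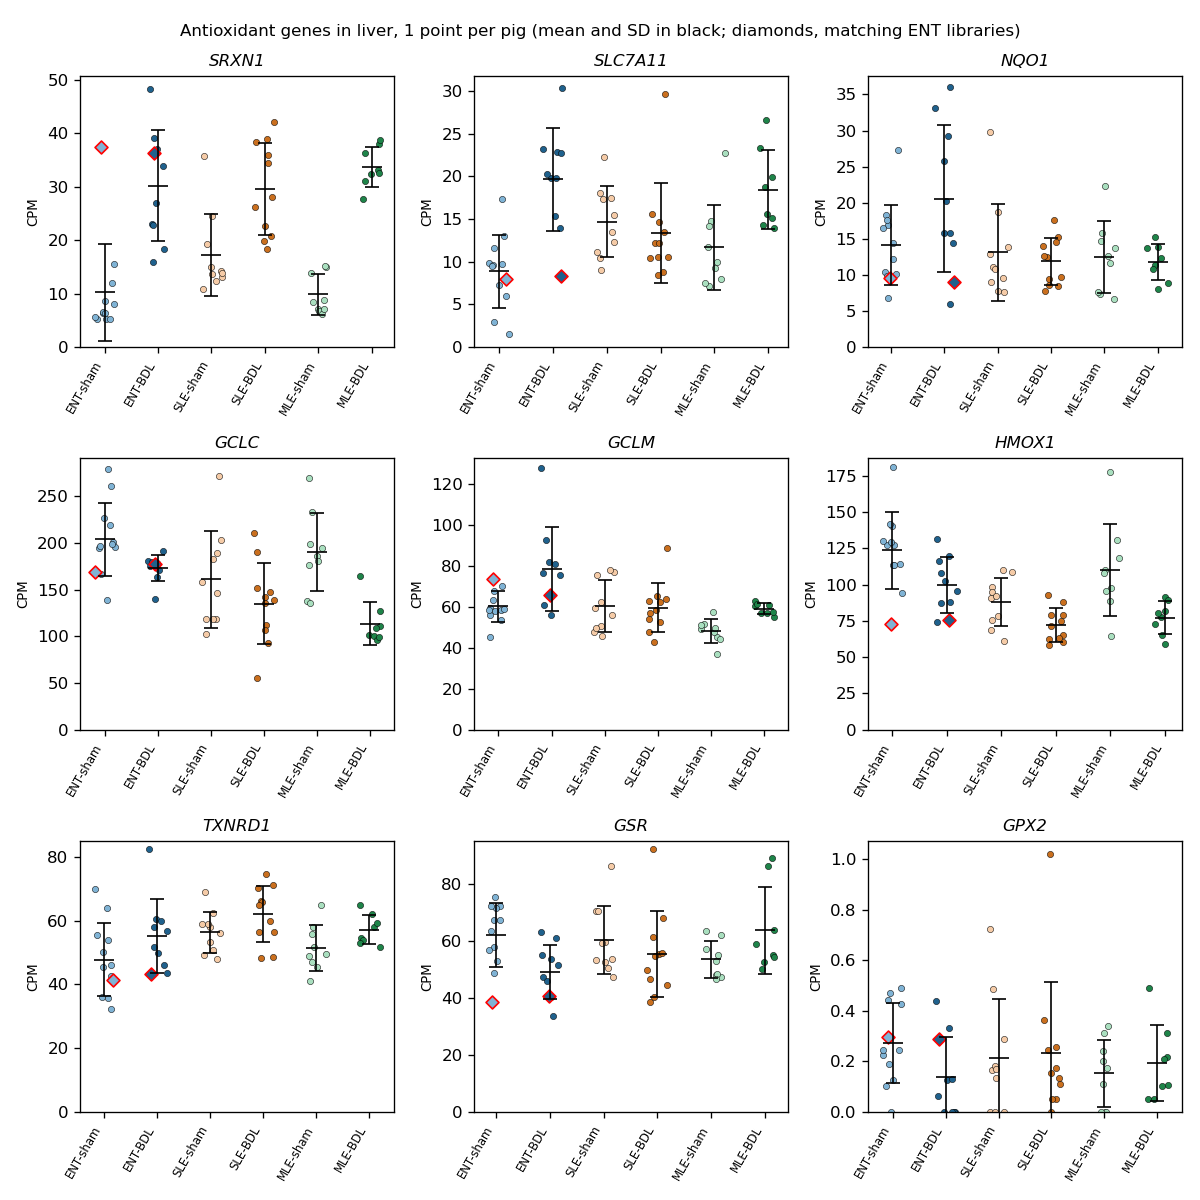
Level of each of the 9 genes in CPM (y axis, linear, from 0) in every pig of the 6 groups (x axis); bars show mean and SD, and red-edged diamonds mark ENT-sham replicate 2 and ENT-BDL replicate 1. SRXN1 lay higher in the ligated group of each diet, with no overlap between MLE-sham and MLE-BDL, whereas TXNRD1 overlapped in every comparison and GPX2 stayed near 0.

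To ask how ligation and diet were associated with these transcripts, each gene was compared by edgeR's quasi-likelihood test between surgeries within a diet and between diets within a surgery, with p-values adjusted over all 16210 genes tested. A gene was called at an adjusted p under 0.05. GPX2 was too low to enter the tests, leaving 8 genes and 96 tests in 12 comparisons, of which 19 were called. Comparisons with a common group share those pigs.

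Ligated pigs were first compared with sham pigs of the same diet. ENT-BDL against ENT-sham called 4 of the 8 tested genes: SRXN1, SLC7A11 and GCLM rose and GSR fell, against 17.4% of all genes called (8.89% higher and 8.53% lower). MLE-BDL against MLE-sham called 3 (SRXN1 rose, GCLC and HMOX1 fell), against 14.4% of all genes (7.85% higher and 6.58% lower). SLE-BDL against SLE-sham called 0, against 4.54% of all genes, with 2 of the 8 at an unadjusted p under 0.05 and 1 (SRXN1) called by DESeq2. The median log2 fold change of the 8 genes with ligation was 0.29 for enterally fed pigs, -0.13 for SLE and 0.20 for MLE, and that of all genes tested was 0.01, 0.01 and 0.00.

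Between diets, most calls were against enteral feeding. SLE-BDL against ENT-BDL called 3 genes, all lower (NQO1, GCLM and HMOX1), beside 19.6% of all genes (10.4% higher and 9.17% lower). MLE-BDL against ENT-BDL called 4, with NQO1, GCLC and GCLM lower and GSR higher, beside 16.8% (8.53% higher and 8.27% lower). With the 3-digit number of the pig identifier as a block, 1 of these 4 was called (NQO1). That number, which the labels do not explain, went largely with feeding. All 17 MLE pigs had numbers in the upper part of its range, as did 2 of 12 ENT-sham and 3 of 10 ENT-BDL pigs, whereas the other ENT pigs had lower numbers than any MLE pig, so that MLE and ENT pigs with a common number are compared through at most 5 ENT pigs. Of SLE pigs, 5 of 10 after sham surgery and 3 of 11 after ligation had numbers in the upper part. In sham pigs, SLE-sham against ENT-sham called 3, with SRXN1 and SLC7A11 higher and HMOX1 lower, which is 37.5% of members beside 27.5% of all genes (13.9% higher and 13.6% lower). MLE-sham against ENT-sham called GCLM alone (lower), or 12.5% of members against 21.1% of all genes (10.7% higher and 10.4% lower), and with the identifier block NQO1 and GSR were called there instead, both lower. In these comparisons a call above 2-fold was made for SRXN1 and SLC7A11 in ENT-BDL against ENT-sham (3.39% of all genes) and SRXN1 in MLE-BDL against MLE-sham (3.78%), and for 0 of the 8 between diets, where the shares of all genes against ENT-BDL were 3.13% for SLE-BDL and 3.18% for MLE-BDL, and those against ENT-sham 5.24% for SLE-sham and 3.71% for MLE-sham.

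Between the 2 lipid emulsions none of these genes was called with all pigs in the fit. MLE-BDL against SLE-BDL called 0 of 8 (0.907% of all genes), with 0 at an unadjusted p under 0.05 and 0 by DESeq2. MLE-sham against SLE-sham called 0 of 8 (0.999% of all genes), with 3 at an unadjusted p under 0.05 and 0 by DESeq2. The log2 difference of SRXN1 in sham pigs, MLE minus SLE, was -0.81 (95% interval -1.35 to -0.27, adjusted p = 0.164, or 0.0465 without the matching libraries), and 6 of 9 MLE-sham pigs lay below every SLE-sham pig. In ligated pigs the 95% interval of the log2 difference, MLE minus SLE, ran from -0.34 to 0.71 for SRXN1 and from -0.03 to 0.96 for SLC7A11.

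**Figure D2:**
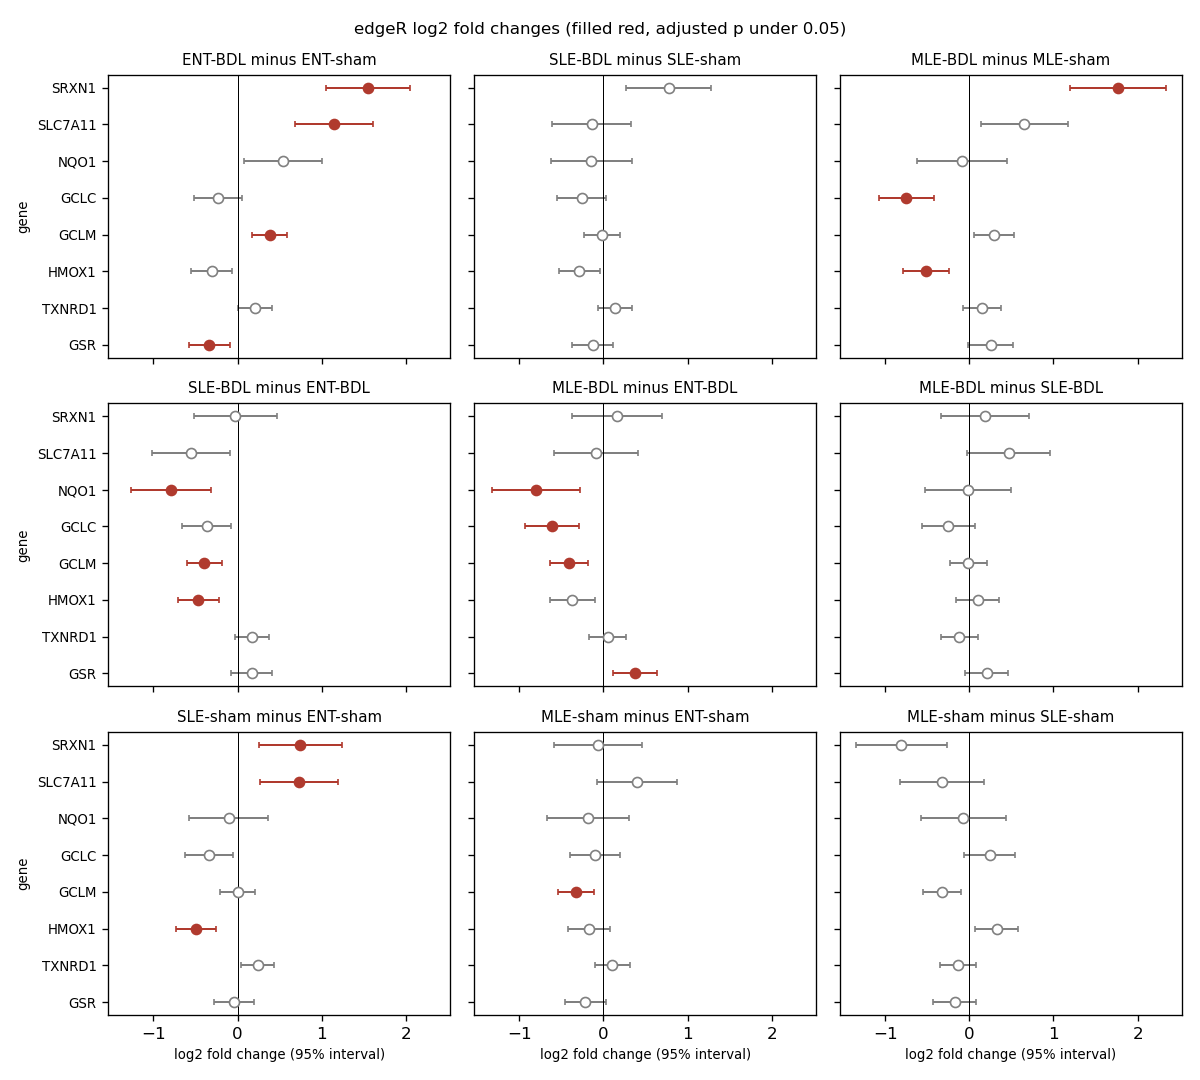
Log2 fold change (x axis) of the 8 tested genes (y axis) in the 9 comparisons between 2 groups, with 95% intervals (1.96 SE); filled red points had an adjusted p under 0.05. SRXN1 had the largest changes after ligation in ENT and MLE pigs, and the panels of MLE against SLE hold no filled point.

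SRXN1, the sulfiredoxin that repairs peroxiredoxins, had the largest change with ligation. In ENT-sham pigs it ranged from 5.20 to 37.4 CPM with a median of 6.55, and in ENT-BDL pigs from 15.9 to 48.3 CPM with a median of 30.4. In MLE-sham pigs it ranged from 6.12 to 15.2 CPM with a median of 8.49, and in MLE-BDL pigs from 27.8 to 38.8 CPM with a median of 32.8. The MLE groups did not overlap, and the ENT groups overlapped only through the library labelled ENT-sham replicate 2. How many of all genes separate in this way is not given here. SRXN1 rose in ENT-BDL by a log2 fold change of 1.55 (SE 0.25, adjusted p = 1.18e-05), which became 1.91 without the matching libraries, and in MLE-BDL by 1.77 (SE 0.29, adjusted p = 2.1e-05).

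In SLE pigs SRXN1 was already higher after sham surgery. SLE-sham pigs ranged from 10.8 to 35.7 CPM (median 14.1) and SLE-BDL pigs from 18.4 to 42.0 CPM (median 28.1). Here 4 of 11 SLE-BDL pigs lay above every SLE-sham pig, and all 11 above the SLE-sham median. The log2 difference of 0.78 (SE 0.26) missed the threshold (adjusted p = 0.0682), and its adjusted p was 0.0403 by DESeq2 and 0.0155 without the matching ENT libraries. SLE-sham exceeded ENT-sham by 0.75 (SE 0.25, adjusted p = 0.0219), or by 1.15 without the matching libraries and by 0.56 (adjusted p = 0.0963) without SLE-sham replicate 6, the highest of its group.

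Whether ligation moved SRXN1 less in SLE than in ENT pigs depended on the matching libraries. The SLE response minus the ENT response was -0.77 (SE 0.36, adjusted p = 0.285) with all pigs, and -1.14 (SE 0.29, adjusted p = 0.0145) without them. In ligated pigs the 3 diets were close, with mean SRXN1 of 30.2 ± 10.4 (SD, n = 10) CPM in ENT, 29.6 ± 8.64 (SD, n = 11) in SLE and 33.7 ± 3.70 (SD, n = 8) in MLE, and none of these differences was called.

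Markers of cholangiocytes and of stellate cells and myofibroblasts, the matrix-forming cells of the liver, were set beside SRXN1. Of 10 cholangiocyte markers, 6 rose in ENT-BDL, 1 in SLE-BDL and 7 in MLE-BDL against their shams, beside 8.89%, 2.97% and 7.85% of all genes higher, none fell, and none had a median count of 0. In ENT-BDL 7 rose without the matching libraries, and in SLE-sham against ENT-sham 3 were higher with them and 5 without. Their summed level ran from 94.6 to 648.7 CPM in ENT-sham and from 341 to 633 CPM in ENT-BDL. It ran from 246 to 434 CPM in SLE-sham and from 319 to 534 CPM in SLE-BDL, groups that overlapped. In MLE-sham it ran from 210 to 287 CPM and in MLE-BDL from 333 to 534 CPM, with no overlap. Of 9 stellate and myofibroblast markers, 3 rose and 1 fell in ENT-BDL, 2 rose in SLE-BDL, and 4 rose and 1 fell in MLE-BDL, beside 17.4%, 4.54% and 14.4% of all genes called, and none had a median count of 0. Their summed level had a median of 1474 CPM (1245 to 4132) in ENT-sham and 2784 (1422 to 4140) in ENT-BDL, with the highest ENT-sham value in replicate 2. It was 2084 CPM (1313 to 3902) in SLE-sham and 2424 (1595 to 8190) in SLE-BDL, and 1851 (1251 to 3180) in MLE-sham and 4101 (2266 to 6043) in MLE-BDL. The part of either marker list in the SRXN1 result was not tested.

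**Figure D3:**
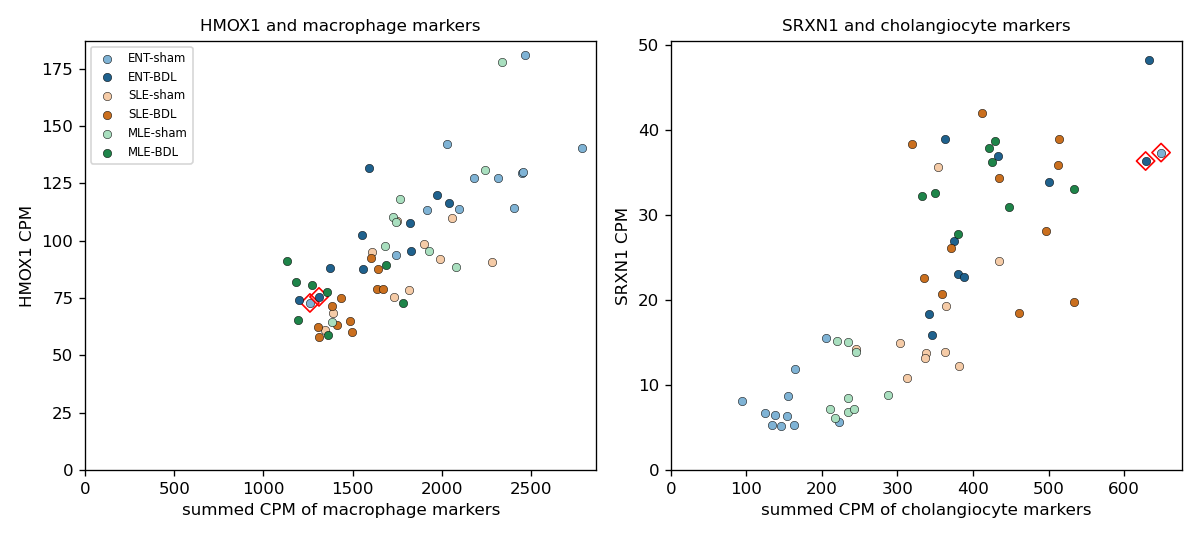
Left, HMOX1 (CPM, y axis) against the summed CPM of 12 macrophage markers (x axis); right, SRXN1 against the summed CPM of 10 cholangiocyte markers. Each point is 1 pig, colored by group, and red diamonds ring the matching ENT libraries; ENT-sham pigs lie at high HMOX1 and low SRXN1, and the ringed ENT-sham pig lies among the ligated pigs in both panels.

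SLC7A11, the cystine importer, was, with all pigs in the fit, the one of the 8 genes whose change with ligation differed between diets past the threshold. It ranged from 1.56 to 17.3 CPM in ENT-sham (median 9.55) and from 8.34 to 30.3 CPM in ENT-BDL (median 20.1). In SLE-sham it ranged from 9.01 to 22.3 CPM (median 14.5), and in SLE-BDL from 8.49 to 29.7 CPM (median 12.1). Thus 7 of 10 ENT-BDL pigs exceeded every ENT-sham pig, but only 1 of 11 SLE-BDL pigs exceeded every SLE-sham pig. SLC7A11 rose by 1.15 in ENT-BDL (SE 0.23, adjusted p = 3.17e-04), while SLE-BDL differed from SLE-sham by -0.14 (SE 0.24, adjusted p = 0.821).

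The SLE response minus the ENT response of SLC7A11 was -1.28 (SE 0.33, adjusted p = 0.0238), above 2-fold, in a comparison in which 2.33% of all genes were called (1.26% higher, 1.07% lower and 1.06% past 2-fold). It was called whichever pig was left out (-1.47 to -1.18), but became -1.08 (adjusted p = 0.0529) with the identifier number as a block. Pigs with the same number deviated together weakly over genes (mean r 0.15 over 177 pairs from different groups, against -0.02 over 1318 other pairs).

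Sham pigs on SLE already had more SLC7A11 than enterally fed ones, by 0.73 (SE 0.24, adjusted p = 0.0158). That difference was 0.54 (adjusted p = 0.0974) with the identifier block. In MLE pigs SLC7A11 averaged 11.7 ± 4.97 CPM (SD, n = 9) after sham surgery and 18.4 ± 4.62 (SD, n = 8) after ligation, a log2 difference of 0.66 (SE 0.27, adjusted p = 0.088) between groups that overlapped. SLE-BDL differed from ENT-BDL by -0.56 (adjusted p = 0.0908, or 0.0482 without the matching libraries). Neither contrast of the MLE response, with ENT (adjusted p = 0.745) or with SLE (adjusted p = 0.446), was called for SLC7A11. Those 2 contrasts called 0 of the 8 genes, with 2 and 4 at an unadjusted p under 0.05 and 0 by DESeq2 in each, beside 0.0617% and 0.265% of all genes. With the identifier block, GSR was called in the MLE minus ENT response (0.64, adjusted p = 0.0107).

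Of the 2 subunits of glutamate-cysteine ligase, GCLC was called lower after ligation in MLE pigs and GCLM was called higher in ENT pigs. Both were called lower in MLE-BDL than in ENT-BDL. GCLC, the catalytic subunit, ranged from 136 to 269 CPM in MLE-sham pigs (median 186) and from 95.6 to 165 CPM in MLE-BDL pigs (median 105). The highest MLE-BDL pig was an exception, as the other 7 lay below every MLE-sham pig. GCLC fell by 0.75 on the log2 scale in MLE-BDL (SE 0.17, adjusted p = 0.00113). It was also lower in MLE-BDL than in ENT-BDL, by -0.61 (SE 0.16, adjusted p = 0.00554; adjusted p = 0.0517 with the identifier block). GCLC differed by -0.23 (SE 0.15) in ENT and -0.26 (SE 0.15) in SLE pigs after ligation, neither called.

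GCLM, the modifier subunit, ranged from 45.3 to 73.5 CPM in ENT-sham (median 58.6) and from 56.1 to 128 CPM in ENT-BDL (median 76.1), with 6 of 10 ENT-BDL pigs above every ENT-sham pig. It rose by 0.38 in ENT-BDL (SE 0.10, adjusted p = 0.00696). The GCLM difference after ligation was 0.29 in MLE pigs (SE 0.12, adjusted p = 0.0873) and -0.02 in SLE pigs (SE 0.11, adjusted p = 0.958), neither called. Of 8 MLE-BDL pigs, 5 lay above every MLE-sham pig. The MLE response minus the ENT response of GCLM was -0.09 (SE 0.16, adjusted p = 0.926). Ligated pigs on either emulsion had less GCLM than ENT-BDL pigs, with a log2 difference of -0.40 for SLE (adjusted p = 0.00537) and one of -0.41 for MLE (adjusted p = 0.0102). The lowest mean was in MLE-sham, 48.2 ± 5.67 CPM (SD, n = 9), against 60.2 ± 7.65 (SD, n = 12) in ENT-sham, a log2 difference of -0.32 (SE 0.11, adjusted p = 0.0267). The MLE-BDL difference from ENT-BDL had an adjusted p of 0.162 with the identifier block, and the sham difference 0.343. The sham difference also missed the threshold without MLE-sham replicate 3 (adjusted p = 0.0678).

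The ratio of the subunits within a pig, a quantity chosen after the values were seen and therefore not tested, does not depend on library scaling. GCLC per kb was 3.48 to 6.98 times GCLM per kb in MLE-sham (median 4.90) and 1.99 to 3.43 times in MLE-BDL (median 2.31). It was 2.53 to 6.20 times in ENT-sham (median 4.44) and 1.39 to 3.89 times in ENT-BDL (median 3.02). It was 1.96 to 6.18 times in SLE-sham (median 3.06) and 1.33 to 4.05 times in SLE-BDL (median 2.98). The MLE groups did not overlap, and the ENT and SLE groups overlapped in part. The SLE medians were nearly equal, while the mean log2 ratio was 1.73 in SLE-sham and 1.47 in SLE-BDL.

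**Figure D4:**
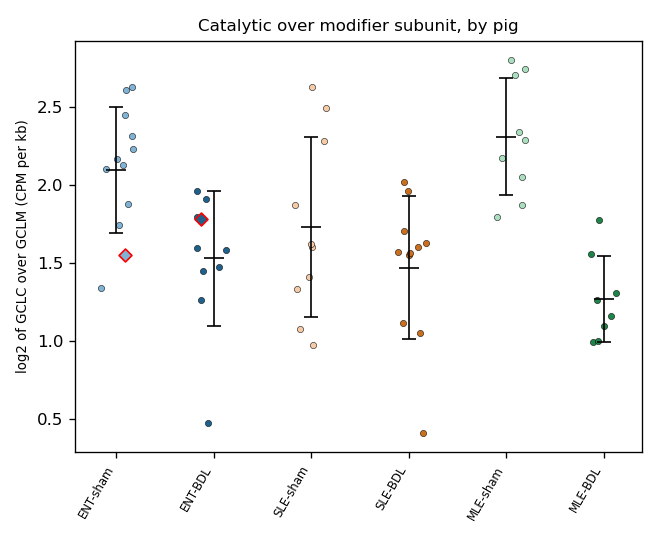
Log2 ratio of GCLC to GCLM, both in CPM per kb (y axis), in each pig of the 6 groups (x axis), with mean and SD; diamonds mark the matching ENT libraries. The mean was 2.31 in MLE-sham and 1.27 in MLE-BDL, and 1.73 in SLE-sham and 1.47 in SLE-BDL; the ratio was not tested.

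HMOX1, haem oxygenase, was highest in ENT-sham pigs and lowest in SLE-BDL pigs. It ranged from 72.9 to 181 CPM in ENT-sham (median 127), and the library labelled ENT-sham replicate 2 was the lowest. It ranged from 61.2 to 110.0 CPM in SLE-sham (median 91.5), and from 64.6 to 178 CPM in MLE-sham (median 108). After ligation it ranged from 74.2 to 132 CPM in ENT (median 98.9), from 58.1 to 92.6 CPM in SLE (median 71.5) and from 58.7 to 91.3 CPM in MLE pigs (median 79.1). All of these groups overlapped with all pigs included, but ENT-sham overlapped SLE-BDL and MLE-BDL only through the library labelled ENT-sham replicate 2. Without the matching libraries, 11 of 11 SLE-BDL and 8 of 8 MLE-BDL pigs lay below every ENT-sham pig. These pairs of groups differ in both diet and surgery and were not tested. How many of all genes separate in this way is not given here, so the separation is a description. HMOX1 was lower in SLE-sham than ENT-sham by -0.49 (SE 0.12, adjusted p = 0.00161), and lower in SLE-BDL than ENT-BDL by -0.47 (SE 0.13, adjusted p = 0.00508). After ligation it fell in MLE pigs by 0.51 (SE 0.14, adjusted p = 0.00783).

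In the other diets the HMOX1 difference after ligation was -0.31 for ENT (adjusted p = 0.0714, or 0.0437 without the matching libraries) and -0.28 for SLE (adjusted p = 0.196). MLE-BDL differed from ENT-BDL by -0.37 (adjusted p = 0.052), and was called in 42 of 60 fits that each left out 1 pig and without the matching libraries (adjusted p = 0.022). None of the 3 contrasts between responses to ligation was called for HMOX1.

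Kupffer cells, the macrophages of the liver, express HMOX1 as they clear aged red cells, and markers of macrophages and of red cell precursors were therefore set beside it. The genes most like HMOX1 over the 60 pigs were C1QA (r = 0.81), C1QC (r = 0.80) and TIMD4 (r = 0.79), all known from macrophages. The pigs share groups, so these are descriptions. The summed level of 12 macrophage markers had a median of 2250 CPM in ENT-sham (1261 to 2784), 1576 in ENT-BDL (1201 to 2043) and 1785 in SLE-sham (1343 to 2280). It was 1485 CPM in SLE-BDL (1308 to 1672), 1766 in MLE-sham (1384 to 2340) and 1315 in MLE-BDL (1134 to 1780). Of the 12, 1 rose and 3 fell in MLE-BDL, 2 rose and 2 fell in SLE-sham against ENT-sham, 2 fell in SLE-BDL against ENT-BDL, and none had a median count of 0. Of all genes, 7.85% rose and 6.58% fell in the first of these comparisons, 13.9% and 13.6% in the second, and 9.17% fell in the third. Without the matching libraries, 2 rose and 4 fell in SLE-sham against ENT-sham. Their part in the HMOX1 results was not tested.

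The summed level of 8 erythroid markers, most of it HBB, a haemoglobin chain, had a median of 1192 CPM in ENT-sham (524 to 2516) and 562 in SLE-sham (338 to 935). It was 1184 CPM in ENT-BDL (377 to 3934) and 623 in SLE-BDL (194.7 to 1503), and 629 in MLE-sham (551 to 982) and 356 in MLE-BDL (261 to 612). In each of the 3 comparisons in which HMOX1 was called lower, the median of the sum was thus lower and the ranges overlapped. Of the 8, 1 was higher and 2 were lower in SLE-sham against ENT-sham, 1 was higher and 1 lower in SLE-BDL against ENT-BDL, and 2 fell in MLE-BDL against MLE-sham, beside 27.5%, 19.6% and 14.4% of all genes called, and none had a median count of 0. HBB was lower by -1.43, -1.12 and -1.09 in these comparisons (SE 0.34, 0.33 and 0.38), and TFRC, the transferrin receptor, which other cells also carry, was the marker that was higher in the first (1.54) and the second (2.02). In MLE-BDL against ENT-BDL, HMOX1 narrowly missed the threshold (-0.37, adjusted p = 0.052). There 5 of the 8 were lower and 1 higher (16.8% of all genes called), or 7 and 1 without the matching libraries. The part of the erythroid markers in the HMOX1 results was not tested.

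NQO1, the quinone reductase, had its highest mean and largest SD in ENT-BDL pigs (20.5 ± 10.2 CPM, n = 10). It ranged from 5.94 to 36.0 CPM there (median 18.0), from 7.74 to 17.7 CPM in SLE-BDL (median 12.4) and from 8.10 to 15.2 CPM in MLE-BDL (median 11.8). The groups overlapped, as the lowest pig of the 3 groups was itself ENT-BDL. NQO1 was lower in SLE-BDL by -0.79 (SE 0.24, adjusted p = 0.016) and in MLE-BDL by -0.80 (SE 0.27, adjusted p = 0.0297). Without ENT-BDL replicate 10, the highest pig, these were -0.66 (adjusted p = 0.0506) and -0.68 (adjusted p = 0.0763), and the MLE difference also missed the threshold when any of 4 other pigs was left out (ENT-BDL replicates 6 and 8, MLE-BDL replicates 4 and 7). ENT-BDL differed from ENT-sham by 0.54 (SE 0.24, adjusted p = 0.111).

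GSR, glutathione reductase, gave the calls that were lost most often when a pig was left out. It ranged from 38.8 to 75.5 CPM in ENT-sham (median 65.5) and from 33.6 to 63.1 CPM in ENT-BDL (median 49.7). In MLE-BDL it ranged from 50.2 to 89.1 CPM (median 57.0). The groups overlapped. GSR fell by 0.34 in ENT-BDL (SE 0.12, adjusted p = 0.0485), called in 32 of 60 fits with 1 pig left out and with an adjusted p of 5.29e-04 with the identifier block. It was higher in MLE-BDL than ENT-BDL by 0.37 (SE 0.13, adjusted p = 0.0457), called in 20 of 60 such fits, at an adjusted p of 0.0654 without the matching libraries, and at 0.10 (adjusted p = 0.644) with the identifier block. The same block gave GSR as lower than in ENT-sham by -0.28 in SLE-sham (adjusted p = 0.0309) and -0.54 in MLE-sham (adjusted p = 4.12e-04), against -0.04 and -0.21 without it, neither called. Without the block, the GSR difference after ligation was 0.25 in MLE pigs (SE 0.14, adjusted p = 0.228) and -0.13 in SLE pigs (SE 0.12, adjusted p = 0.64), neither called. The MLE response minus the ENT response of GSR was then 0.59 (SE 0.18, adjusted p = 0.237).

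TXNRD1, the thioredoxin reductase of the cytosol, was not called in any comparison. Its group means lay between 47.8 ± 11.5 CPM (SD, n = 12) in ENT-sham and 62.0 ± 8.88 (SD, n = 11) in SLE-BDL. After ligation the log2 differences were 0.21 in ENT (95% interval 0.01 to 0.41), 0.14 in SLE (-0.07 to 0.34) and 0.15 in MLE pigs (-0.07 to 0.38), so that a 2-fold change lay outside all 3 intervals. The difference between SLE-sham and ENT-sham was 0.24 (adjusted p = 0.071, or 0.00743 with the identifier block).

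GPX2, a glutathione peroxidase best known from the gut lining, had 0 to 15 counts per library. It had 0 counts in 12 pigs and 3 or fewer in 36 of 60, and its highest level was 1.02 CPM, in an SLE-BDL pig. It overlaps CHURC1 on the opposite strand, which had 39000 counts over all pigs against 210 for GPX2. The kit did not keep strand, so reads of the pair cannot be told apart where they overlap, and differences in GPX2 between groups were not tested at this depth. Its group means ran from 0.138 CPM in ENT-BDL, with 4 of 10 pigs at 0, to 0.271 CPM in ENT-sham, with 1 of 12 at 0.

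Pairs of these genes were also compared within groups. Log2 CPM was centered on group means and 28 pairs of genes were correlated over 60 pigs, with 100000 permutations within groups. Both Pearson's r and Spearman's rho passed for 2 pairs after adjustment. NQO1 and GSR had r = 0.58 and rho = 0.58 (permutation, adjusted p = 2.8e-04 for each, the smallest these permutations can give), and r = 0.54 without the 2 pigs farthest from the median of NQO1. With the identifier number also removed, r was 0.28. In each pair the 2 farthest pigs were picked by the gene named first alone, so pigs far out in the other gene stayed in. GCLM and TXNRD1 had r = 0.45 (permutation, adjusted p = 0.00686) and rho = 0.45 (adjusted p = 0.00812), 0.40 without the 2 farthest pigs and 0.44 with the identifier number removed. Within single groups, r for GCLM and TXNRD1 ran from -0.03 in MLE-BDL to 0.72 in ENT-BDL. TXNRD1 and SRXN1 passed by rho alone (rho = 0.40, permutation, adjusted p = 0.0398), with r = 0.39 (adjusted p = 0.083) and r = 0.30 without the 2 farthest pigs. Without the matching libraries r was 0.56 for TXNRD1 and SRXN1, 0.47 for GCLM and TXNRD1 and 0.57 for NQO1 and GSR.

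**Figure D5:**
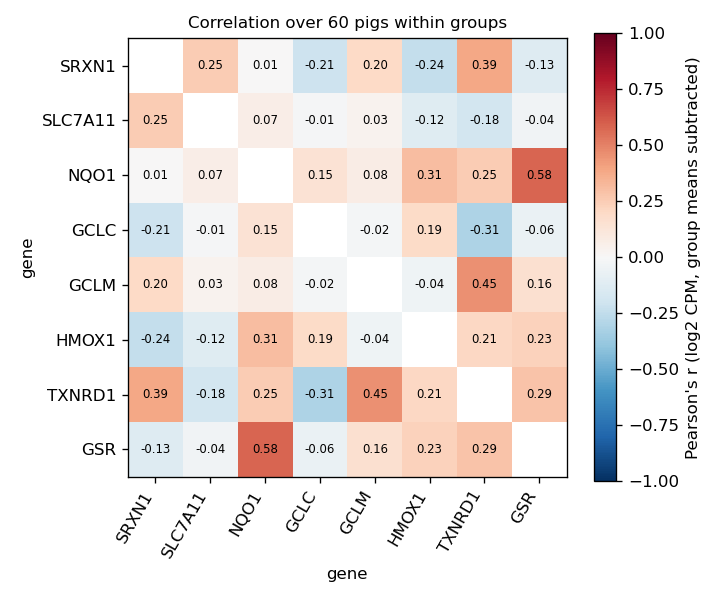
Pearson's r (color and number) of log2 CPM between each pair of the 8 tested genes (both axes) over 60 pigs after group means were subtracted. NQO1 with GSR (0.58) and GCLM with TXNRD1 (0.45) are the pairs past the threshold by both measures.

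The genes most like the others over all 60 pigs, group differences included, were different for each. SRXN1 was most like S100A6 (r = 0.87), TNFRSF12A (r = 0.86) and ANXA2 (r = 0.85), and GCLC was most like C4BPB (r = 0.77), MAB21L3 (r = 0.77) and HLF (r = 0.76). NQO1 was most like EPHX1 (r = 0.66), BLVRB (r = 0.63) and ESD (r = 0.63), and SLC7A11 reached only 0.59 (AKTIP), 0.58 (ADAP1) and 0.58 (DNAJB2). GCLM was most like CALD1, TMX4 and ITCH (r = 0.66 to 0.68), TXNRD1 like YWHAG, PSMD7 and DDX47 (r = 0.74 to 0.79) and GSR like GFM1, SLC27A2 and DLST (r = 0.71 to 0.75).

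Related genes were then counted by list. Counts and fold changes of listed genes, the markers above included, are without the identifier block. MLE and ENT pigs differed largely in identifier number too, so a diet difference in these lists cannot be told apart from it. Among 13 regulators of NRF2, ligation moved 0 in ENT, 1 in SLE (MAFF, a small MAF partner, log2 fold change 1.16) and 0 in MLE pigs, beside 17.4%, 4.54% and 14.4% of all genes called. Against ENT-BDL, 2 were higher and 1 lower in SLE-BDL and 1 higher and 1 lower in MLE-BDL, beside 19.6% and 16.8% of all genes. Against ENT-sham, 2 were higher in SLE-sham and 2 higher and 2 lower in MLE-sham, beside 27.5% and 21.1%. KEAP1, the inhibitor, was higher in SLE-sham than ENT-sham by 0.36 (adjusted p = 1.59e-06). NFE2L2, the NRF2 gene itself, was lower in SLE-BDL than ENT-BDL by -0.25 (adjusted p = 0.0093), while MAFF was higher there by 1.16 (adjusted p = 0.00374) and DPP3, which competes for KEAP1, by 0.49 (adjusted p = 0.0137). MAFG, another small MAF partner, was higher in MLE-BDL than ENT-BDL by 0.36 (adjusted p = 0.0103), and higher than in ENT-sham by 0.30 in SLE-sham and 0.39 in MLE-sham. Of 15 other NRF2 targets tested, 2 rose and 3 fell in ENT-BDL, 1 rose and 1 fell in SLE-BDL and 2 rose and 1 fell in MLE-BDL against sham, beside the same shares of all genes. OSGIN1, an oxidative stress induced growth inhibitor, fell by 1.38 in ENT-BDL (SE 0.28), and the quinone reductase NQO2 fell by 0.53 in MLE-BDL (SE 0.08). EPHX1, the microsomal epoxide hydrolase, was lower than in ENT-BDL by -0.60 in SLE-BDL and -0.82 in MLE-BDL.

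The enzymes and carriers around glutathione moved in both directions. Of 20 genes of glutathione synthesis, breakdown and cysteine supply, 3 rose and 4 fell in ENT-BDL, 2 rose in SLE-BDL, and 3 rose and 4 fell in MLE-BDL, beside 17.4%, 4.54% and 14.4% of all genes called. GGT1, which breaks down extracellular glutathione, rose by 0.80 in ENT-BDL (SE 0.12) and 0.53 in SLE-BDL (SE 0.12). CDO1, which oxidizes cysteine, fell by 1.01 in ENT-BDL (SE 0.31) and rose by 1.18 in SLE-BDL (SE 0.32). Its SLE response minus ENT response was 2.18 (SE 0.44, adjusted p = 0.00283), the 1 call among the 20 genes in that contrast, beside 2.33% of all genes. CTH, which makes cysteine by transsulfuration, fell by 0.83 in MLE-BDL (SE 0.19). SLC3A2, the heavy chain that carries SLC7A11 to the membrane, was higher than in ENT-BDL by 0.72 in SLE-BDL and 0.71 in MLE-BDL.

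Of 9 glutathione S-transferases tested, 1 fell in ENT-BDL, 0 in SLE-BDL and 3 in MLE-BDL, and none rose, beside 8.53%, 1.57% and 6.58% of all genes lower. GSTA1, a transferase abundant in hepatocytes, was lower than in ENT-BDL by -1.12 in SLE-BDL (SE 0.33) and -1.48 in MLE-BDL (SE 0.37). Of 9 hepatocyte markers, 5 fell in ENT-BDL, 0 in SLE-BDL and 6 in MLE-BDL against sham and none rose, beside 8.53%, 1.57% and 6.58% of all genes lower. Their summed level had a median of 110454 CPM in ENT-sham and 64024 in ENT-BDL. The medians were 81771 CPM in SLE-sham and 75680 in SLE-BDL. In MLE pigs they were 90650 CPM after sham surgery and 57288 after ligation, and the MLE ranges did not overlap. Nor did the ENT ranges without the matching libraries, when the lowest ENT-sham pig was at 96728 CPM and the highest ENT-BDL pig at 95354. Their part in the falls of GCLC and the transferases was not tested.

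Of 5 glutathione peroxidases, 1 rose with ligation in ENT and 0 in SLE and MLE pigs, and none fell, beside 8.89%, 2.97% and 7.85% of all genes higher. Against ENT pigs of the same surgery, 2 were higher in SLE-sham and 1 in each of MLE-sham, SLE-BDL and MLE-BDL, and none was lower, beside 13.9%, 10.7%, 10.4% and 8.53% of all genes higher. GPX3, the plasma form, rose by 1.37 in ENT-BDL (SE 0.43) and was higher in SLE-sham than ENT-sham by 2.08 (SE 0.44). GPX4, which reduces lipid peroxides, was higher than in ENT-BDL by 0.42 in SLE-BDL and 0.34 in MLE-BDL, and higher in SLE-sham than ENT-sham by 0.29 (adjusted p = 0.0196). GPX7, an oxidoreductase of the endoplasmic reticulum, was higher in MLE-sham than ENT-sham by 0.44 (adjusted p = 0.0431), a comparison with 0 of the 5 called without the matching libraries. Of 17 thioredoxins, peroxiredoxins and glutaredoxins, 4 fell and 0 rose in SLE-sham against ENT-sham, and 2 fell and 0 rose in MLE-sham, or 6 and 4 without the matching libraries, beside 13.6% and 10.4% of all genes lower with all pigs. TXNIP, which binds and restrains thioredoxin, was lower by -0.92 in SLE-sham and -1.01 in MLE-sham. Of 4 genes for superoxide and peroxide removal, 1 fell with ligation in ENT and 0 moved in SLE and MLE pigs, beside 8.53% of all genes lower in ENT-BDL, and 1 was higher in each of SLE-sham and SLE-BDL than in ENT pigs, beside 13.9% and 10.4% of all genes higher. SOD1 fell by 0.47 in ENT-BDL, and mitochondrial SOD2 was higher by 0.65 in SLE-sham and 0.54 in SLE-BDL.

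Of 8 NADPH-supplying enzymes, 1 rose and 3 fell in ENT-BDL, 1 rose in SLE-BDL, and 1 rose and 2 fell in MLE-BDL, beside 17.4%, 4.54% and 14.4% of all genes called. In each of SLE-sham and MLE-sham 1 was higher and 2 were lower than in ENT-sham, beside 27.5% and 21.1%, and in each of SLE-BDL and MLE-BDL 1 was higher and 1 lower than in ENT-BDL, beside 19.6% and 16.8%. ME1, malic enzyme, rose after ligation in each diet, by 0.85 with enteral feeding, 0.75 with SLE and 0.80 with MLE. TKT and TALDO1, of the non-oxidative pentose phosphate pathway, were lower in SLE-sham than ENT-sham by -0.49 and -0.42, and in MLE-sham by -0.41 and -0.38. Of 12 haem and iron genes, 2 fell in ENT-BDL, 1 rose in SLE-BDL and 3 fell in MLE-BDL, beside 8.53% of all genes lower, 2.97% higher and 6.58% lower. ALAS1, the first enzyme of haem synthesis, fell by 0.91 in ENT-BDL (SE 0.24), and the iron exporter SLC40A1 fell by 1.01 in MLE-BDL (SE 0.14). FTH1, ferritin heavy chain, was higher in SLE-sham and MLE-sham than ENT-sham, by 0.60 and 0.71.

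A list of 14 genes held ATF4, the stress-response factor that also acts on SLC7A11, and 13 of its targets. Of the 14, 11 were higher in SLE-sham and 10 in MLE-sham than in ENT-sham, and 10 were higher in each of SLE-BDL and MLE-BDL than in ENT-BDL, with none lower. Of all genes, 13.9% and 10.7% were higher in the sham and 10.4% and 8.53% in the ligated comparisons. Without the matching libraries these counts were 11, 9, 9 and 9. They are given without the identifier block, and few ENT pigs shared a number with MLE pigs. DDIT3 was higher by 1.43 in SLE-sham and 1.33 in MLE-sham, and TRIB3 by 1.70 and 1.67. The median log2 difference of the 14 was 0.61 in SLE-sham and 0.49 in MLE-sham, against -0.01 for all genes in each. Ligation within a diet raised 3, 2 and 2 of them in ENT, SLE and MLE pigs and lowered 1, 1 and 0, beside 17.4%, 4.54% and 14.4% of all genes called, with ATF3 rising by 1.14, 1.28 and 1.92. SLC7A11 itself was called higher than in ENT-sham in SLE-sham (0.73) but not in MLE-sham (0.40). Against ENT-BDL it differed by -0.56 in SLE-BDL and -0.09 in MLE-BDL, neither called. The part of ATF4 in the SLC7A11 results was not tested.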

How the data were processed

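Per the labels and the study's methods, liver poly-A RNA was prepared with a non-directional kit, reads were mapped with HISAT2 2.0.5 to Sscrofa11.1 and counted per gene with featureCounts 1.5.0-p3 (strand setting not given in the sources used here). The authors deposited raw counts for 60 pigs. Here, 24 features without a gene name (0.00842% to 0.0407% of counts) were left out. Counts were TMM-scaled to CPM and tested with edgeR 4.0.16 (R 4.3.3; quasi-likelihood, robust, 6 group means over all 60 pigs, filterByExpr by group), with Benjamini-Hochberg adjustment over 16210 genes. Intervals are 1.96 SE wide on each side. Scripts were tested on simulated counts.

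On Sscrofa11.1, NQO1 lies at chr6:17292962-17302593, GCLC at chr7:27209565-27253535, GCLM at chr4:123371198-123390130, TXNRD1 at chr5:80170334-80213889, SRXN1 at chr17:34582377-34589308, GPX2 at chr7:89007636-89011620, SLC7A11 at chr8:88608083-88690589 and GSR at chr15:54382564-54433989, whereas HMOX1 lies on an unplaced scaffold.

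Named genes were all 9 members, up to 3 genes per list and comparison with an adjusted p under 0.05, a mean log2 CPM of at least 2 and the largest change, and the 3 genes most correlated with each member. Members and lists were chosen with earlier results of these data known. Alternatives were RLE scaling, 2 filters, DESeq2 1.42.0, fits on the compared groups only, blocks by replicate or identifier number, and leaving out pigs.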

Additional observations from a re-analysis of the deposited data

Results flagged for a closer look

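In ENT-BDL replicate 4, GCLC was 139.5 CPM, below the other 9 ENT-BDL pigs, which lay between 164 and 191 CPM. In the same pig TXNRD1 was 82.5 CPM, above the others, which lay between 43.3 and 60.4 CPM. Each gap was large against the range of its group. Of 36 sets examined (9 genes in the 4 groups of 10 or fewer pigs), 2 were set apart in this way, and chance sets apart about 1 in 20. ENT-sham and SLE-BDL, with 12 and 11 pigs, were not examined for such gaps, and SRXN1 in the library labelled ENT-sham replicate 2 was 37.4 CPM, against 5.20 to 15.6 CPM in the other 11 pigs. The change of SLC7A11 after ligation differed between SLE and ENT pigs, with a log2 difference of responses of -1.28 (edgeR interaction, adjusted p = 0.0238, SE 0.33).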

How the results depend on the processing

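No log2 fold change of a called gene reversed under any alternative. Of 96 tests, 94 kept their side of the threshold with DESeq2, 94 with RLE scaling, 94 with no filter and 95 with at least 10 counts in every pig, against 88 with fits on the compared groups, 92 with the replicate block, 89 without the matching ENT libraries and 83 with the identifier block. Where neither value passed, the sign changed in 0 to 8 tests per setting.

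When called genes also had to pass 2-fold, 2 were left in ENT-BDL against ENT-sham, 1 in MLE-BDL against MLE-sham and 0 in SLE-BDL and MLE-BDL against ENT-BDL and in SLE-sham and MLE-sham against ENT-sham. SLE-BDL against SLE-sham had 1 with DESeq2, fits on the compared groups, the replicate block, the identifier block or without the matching libraries, and MLE-BDL against MLE-sham had 5 with fits on the compared groups. With the identifier block there was 1 in MLE-BDL against ENT-BDL, 2 in MLE-sham against ENT-sham, 0 for the SLE minus ENT response and 1 for the MLE minus ENT response (GSR, 0.0107 adjusted p). Without the matching libraries there was 1 in MLE-sham against SLE-sham (SRXN1, adjusted p = 0.0465) and 2 for the SLE minus ENT response. The cause was not tested.

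With each pig left out in turn, the count was 3 to 5 in ENT-BDL against ENT-sham, 0 to 1 in SLE-BDL against SLE-sham (1 without ENT-sham replicate 2, SLE-sham replicate 6 or SLE-BDL replicate 11) and 3 to 4 in MLE-BDL against MLE-sham. It was 2 to 4 and 3 to 5 in SLE-BDL and MLE-BDL against ENT-BDL, and 2 to 5 in SLE-sham (5 without ENT-sham replicate 7) and 0 to 1 in MLE-sham (0 without MLE-sham replicate 3) against ENT-sham. MLE-sham against SLE-sham had 0 to 1 and the SLE minus ENT response 1 to 2, both highest without ENT-sham replicate 2. MLE-BDL against SLE-BDL and both MLE responses stayed at 0.

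Replicate numbers did not pair the pigs (r of -0.42 to 0.43 over 82 same-numbered pairs, median 0.02), and blocking on them left 3 called genes in ENT-BDL against ENT-sham, 3 in MLE-BDL against MLE-sham and 4 and 3 in SLE-BDL and MLE-BDL against ENT-BDL. Depth limited GPX2 alone: the other 8 genes had at least 25 counts in every pig. RLE scaling moved 54 of 54 group levels by less than 1 SD.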
